A study of Mus musculus with 6 samples.

Results

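The EGF receptor, its ligands, the protease that frees them and feedback genes of its pathway were followed in primary mouse lung fibroblasts (LFs) exposed to TGFβ. The group held 10 genes, taken by their mouse symbols from the 55364 genes listed: the receptor Egfr, the ligands Hbegf, Areg, Ereg and Tgfa, the sheddase Adam17, and the feedback genes Errfi1, Spry2, Spry4 and Dusp6. All 10 were found among the genes listed, 9 had at least 1 count in a library, and 7 passed the filter on low counts and were tested. Egfr, Hbegf, Ereg, Adam17, Errfi1, Spry2 and Dusp6 were the tested genes, and Areg, Tgfa and Spry4 were not tested. Hbegf and Ereg were lower in Tks5+/- LFs, Errfi1 and Spry2 were higher, and no difference passed the test for Egfr, Adam17 and Dusp6.

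The study asked what a reduced dose of Tks5, a scaffold protein of podosomes encoded by Sh3pxd2a, does to the transcripts of LFs stimulated with a pro-fibrotic factor. LFs were isolated from adult C57Bl6/J wt mice and their littermates with a deleted Sh3pxd2a allele, starved of serum, and exposed to 10 ng/ml of recombinant human TGFβ1 for 24 h, with 3 libraries per genotype. All libraries came from exposed cells, so that each difference is between genotypes under TGFβ and not a response to it. The labels call the second genotype TKS5 KO, whereas the paper names it Tks5+/-, a heterozygous loss, and the latter name is used here. The deletion was made with a Cre that acts in the whole body, so that it was present in the animals before the LFs were isolated. The paper states in general terms that its samples were independent, while the labels do not tie the 3 libraries of a genotype to separate animals, and the p-values measure the spread between these libraries.

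EGF family ligands are made as proteins that span the membrane, and most of them are cut loose by proteases such as ADAM17 before they bind EGFR on the same or a neighbouring cell. EGFR then passes its signal through adaptors, RAS, RAF and MEK to the ERK kinases, which induce transcription of several ligands and of genes that limit the pathway. ERRFI1 (MIG6) binds and inhibits the active receptor, Sprouty proteins act between the receptor and ERK, and DUSP6 removes phosphate from ERK. In the lung, EGF receptor ligands are known for their part in epithelial repair and in the growth and migration of fibroblasts.

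The promoters of the 2 genes that rose are shown first, since both are feedback genes of the pathway. RefSeq entries were found for 7 of the 10 genes, and the 250 bases before the start site are given below on GRCm38.p6, 5′ to 3′ on the strand of the gene. Capitals mark matches to motifs searched on both strands. Errfi1 has 2 RefSeq starts. The stretch shown, chr4:150854820-150855069 on the forward strand, belongs to the one that lay 3 bases from the start of an annotated transcript inside the gene. For Spry2, the stretch is chr14:105896820-105897069 on the reverse strand.
Errfi1: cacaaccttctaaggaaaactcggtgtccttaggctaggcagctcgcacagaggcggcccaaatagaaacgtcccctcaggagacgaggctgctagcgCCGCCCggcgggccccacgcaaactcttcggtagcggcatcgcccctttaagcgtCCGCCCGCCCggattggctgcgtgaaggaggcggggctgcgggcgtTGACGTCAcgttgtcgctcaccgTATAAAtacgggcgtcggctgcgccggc
Spry2: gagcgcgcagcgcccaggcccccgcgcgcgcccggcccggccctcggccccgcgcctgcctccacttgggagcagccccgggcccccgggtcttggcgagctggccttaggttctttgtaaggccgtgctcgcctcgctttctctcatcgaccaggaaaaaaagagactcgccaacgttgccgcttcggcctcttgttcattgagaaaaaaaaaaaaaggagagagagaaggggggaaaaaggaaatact
The Errfi1 stretch held 64.8% G and C and the Spry2 stretch 62.4%, against a median of 52.4% over the 32851 promoters of the table. In the Errfi1 stretch, counted back from the start site, a cAMP response element with the letters TGACGTCA began at -51 and a TATA box with the letters TATAAA began at -28. These motifs were held by 1.5% and 12.4% of all promoter stretches of this length. GC boxes, GGGCGG by their letters and here read on the opposite strand, began at -152, -97 and -93, the last pair overlapping, and 32.7% of all stretches held this motif. The Spry2 stretch held no match to any of these letters. It also held none to the AP-1 motif TGANTCA, none to the ETS factor motif CCGGAAGT, none to the TEAD factor motif GGAATG, and none to the CArG box. The other Errfi1 stretch, chr4:150853546-150853795, belongs to a start site 123 bases before the annotated start of the gene. It held 38.0% G and C, a TEAD motif at -65, which 12.6% of all stretches held, and no match to the other motifs. These matches describe the letters of the window and were not tested for binding.

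RNA was measured by Quant-Seq, which reads the end of each polyadenylated transcript, and the counts of a gene therefore follow the number of transcripts rather than their length. The counts added up to between 1344507 and 2369882 per library, and levels are given as CPM, the counts relative to library sizes scaled by the TMM method. Where 3 values are given for a genotype, they follow the order of replicates 1, 2 and 3. The test was edgeR's quasi-likelihood F test, and calls required a fold change of 1.2 or more with a p below 0.05 after adjustment over the 10346 genes tested. By this rule 44.9% of the genes tested were called, 22.8% as higher and 22.1% as lower in Tks5+/- LFs, and the CPM of the genotypes did not overlap for 53.8%. With libraries scaled by their totals alone, 1362 genes were higher and 3944 lower, against 2356 and 2286 here. Of the 7 tested genes of the EGF receptor group, 4 were called, 2 in each direction, and the same 4 had CPM that did not overlap. These shares are close to those over all genes. The median log2 fold change was -0.28 over the 7 genes and -0.05 over all genes tested. Sh3pxd2a itself was counted over its 3′ region, and whether the deletion alters that count was not tested. It came to 113 ± 16.5 CPM in wt and 138 ± 11.1 CPM in Tks5+/- LFs (SD, n = 3), and was not called (log2 fold change 0.29, adjusted p = 0.249). The paper reports by Q-RT-PCR that Tks5 mRNA was reduced in Tks5+/- LFs, and the counts here do not check the labels. All 9 fibroblast markers had counts in every library, and their summed CPM were between 3876 and 5254 in wt and between 5599 and 8715 in Tks5+/- LFs. Of these, 4 were called higher, among them Thy1 (3.81-fold) and Vim (2.41-fold), and 1, Pdgfrb, 2.00-fold lower, where 22.8% and 22.1% of all genes tested were. Of the 4 not called, Col1a1 and Col1a2 had log2 fold changes of 0.45 and 0.39, and Dcn and Lum of -0.31 and -0.85.

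**Figure D1:**
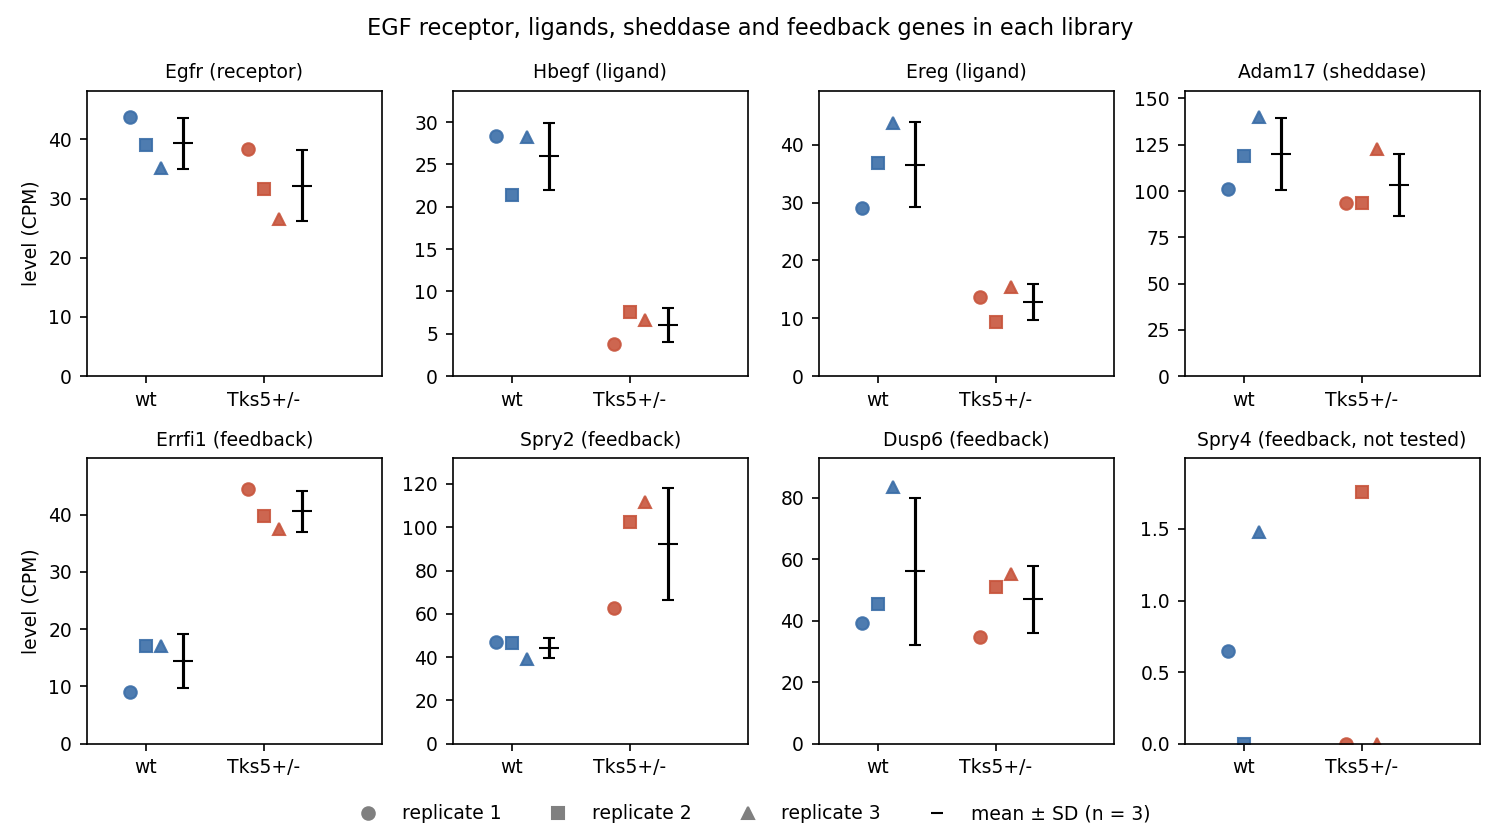
Level of 8 genes of the EGF receptor group in each library, in CPM on linear axes that start at 0, for wt (blue) and Tks5+/- (red) LFs, with the marker shape giving the replicate and black bars the mean ± SD (n = 3). Hbegf and Ereg sat lower in all 3 Tks5+/- libraries than in any wt library, Errfi1 and Spry2 sat higher, and Egfr, Adam17 and Dusp6 overlapped. Spry4, at no more than 4 counts, is shown without a mean.

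Egfr (ENSMUSG00000020122), which encodes the receptor itself, spans chromosome 11 from 16752203 to 16918158 on the forward strand. It had 68, 73 and 95 counts in the wt libraries against 70, 54 and 52 in those of Tks5+/- LFs, or 39.4 ± 4.28 and 32.2 ± 5.92 CPM (SD, n = 3). The first Tks5+/- library, at 38.4 CPM, lay inside the wt range of 35.2 to 43.8 CPM, and the genotypes overlapped. The log2 fold change was -0.28 with a standard error (SE) of 0.24 and an adjusted p of 0.353, and its 95% interval ran from -0.78 to 0.22. By an exact permutation test of the CPM (two-sided) p was 0.2, and a design of 3 against 3 cannot go below 0.1. A fall of up to 0.78 on the log2 scale thus lies within the interval. Egfr has the longest transcript of the group, at 10208 bases. Among all genes the median log2 fold change went from 0.57 in the 2585 genes with the shortest transcripts to -0.51 in the 2585 with the longest, of at least 4692 bases, and with a correction for this trend Egfr stood at 0.38 (adjusted p = 0.201). The direction for Egfr therefore depended on the correction, and neither value passed the test. The part of transcript length in the result was not tested further.

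Among the ligands, both that were tested fell, where 22.1% of all genes tested were called lower. HB-EGF, the product of Hbegf (ENSMUSG00000024486), binds EGFR and ERBB4 and is a known growth factor for fibroblasts and smooth muscle cells. Hbegf lies on chromosome 18 from 36504927 to 36515805 on the reverse strand, and it had 44, 40 and 76 counts in the wt libraries against 7, 13 and 13 in those of Tks5+/- LFs. The wt libraries lay between 21.4 and 28.3 CPM and the Tks5+/- libraries between 3.84 and 7.61 CPM, with no overlap, and the lowest value was that of Tks5+/- replicate 1. The level was 4.28-fold lower in Tks5+/- LFs, a log2 fold change of -2.10 with a 95% interval from -2.80 to -1.39 (adjusted p = 3.4e-05). Of all genes tested, 2.73% had a lower log2 fold change.

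Ereg (ENSMUSG00000029377) encodes epiregulin, a ligand of EGFR and ERBB4, and lies on chromosome 5 from 91074622 to 91093646 on the forward strand. It had 45, 69 and 118 counts in the wt libraries against 25, 16 and 30 in those of Tks5+/- LFs. This came to 29.0, 36.9 and 43.8 CPM in wt and to 13.7, 9.36 and 15.4 CPM in Tks5+/- LFs, so that the highest Tks5+/- library was below the lowest wt library. Mean levels were 36.5 ± 7.40 and 12.8 ± 3.10 CPM (SD, n = 3), 2.85-fold lower in Tks5+/- LFs. The log2 fold change was -1.51 (SE 0.29, 95% interval from -2.10 to -0.92, adjusted p = 1.86e-04).

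Amphiregulin and TGF-α, the products of the other two ligand genes, had next to no reads in either genotype. Areg (chromosome 5, from 91139599 to 91148432, forward strand) had 0 counts in all 6 libraries, and Tgfa (chromosome 6, from 86195223 to 86275719, forward strand) had 1 count in wt replicate 1 and 0 in the others. A count of 0 allows up to 3 counts, which is between 1.11 and 1.93 CPM depending on the library, and no difference was detectable at this depth. For Areg, Ereg and Epgn, which lie side by side on chromosome 5 with Btc, transcripts of Ereg alone were thus present in number. Summed over the 7 genes of EGFR ligands (these 4 with Btc, Epgn and Egf), the libraries held 64.4, 60.5 and 76.8 CPM in wt and 18.7, 19.3 and 26.6 CPM in Tks5+/- LFs. Hbegf and Ereg made up between 82.7% and 96.5% of these counts in every library. The means of the sum were 67.2 ± 8.50 and 21.5 ± 4.42 CPM (SD, n = 3).

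Adam17 (ENSMUSG00000052593), the main sheddase of HB-EGF, epiregulin, amphiregulin and TGF-α, lies on chromosome 12 from 21323509 to 21373632 on the reverse strand. The gene had 157, 222 and 378 counts in the wt libraries against 171, 160 and 240 in those of Tks5+/- LFs, or 120 ± 19.6 and 103 ± 16.8 CPM (SD, n = 3). Tks5+/- replicate 3, at 123 CPM, lay above wt replicates 1 and 2, and the genotypes overlapped. The log2 fold change of -0.22 did not pass the test (SE 0.21, 95% interval from -0.65 to 0.22, adjusted p = 0.418). The last exon of Adam17 overlaps exons of Iah1 on the opposite strand, and since the sources used here do not say whether the counting kept to 1 strand, reads of both genes could be mixed. Of the other 8 sheddases and their regulators, 7 were tested, and 3 fell, where 22.1% of all genes tested were called lower.

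The steepest of these falls was that of Rhbdf1, which encodes iRhom1, a partner that brings ADAM17 to the cell surface in its active form. Rhbdf1 had 113, 192 and 219 counts in the wt libraries against 21, 27 and 33 in those of Tks5+/- LFs, with no overlap in CPM. It was 5.78-fold lower in Tks5+/- LFs, from 85.6 ± 15.5 to 14.7 ± 2.84 CPM (SD, n = 3), and the log2 fold change was -2.53 (SE 0.25, adjusted p = 9.39e-08). Adam15, a metalloprotease of the same family as Adam17, fell by 1.95 on the log2 scale (SE 0.21, adjusted p = 2.35e-07), from 151 ± 5.10 to 39.1 ± 2.61 CPM (SD, n = 3). Timp3, which encodes an inhibitor of ADAM17 and other metalloproteases, also fell, from 2187 ± 470.5 to 858 ± 147 CPM (SD, n = 3; log2 fold change -1.35, adjusted p = 4.03e-05). The gene of the sheddase thus showed no called difference while transcripts of a partner and of an inhibitor of its product were both lower. Timp3 lies within Syn3, a gene of the opposite strand whose exons overlap its last exon.

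Of the 3 tested feedback genes, 2 rose, where 22.8% of all genes tested were called higher. Errfi1 (ENSMUSG00000028967), whose promoter is shown above, spans chromosome 4 from 150853919 to 150868892 on the forward strand. It had 14, 32 and 46 counts in the wt libraries against 81, 68 and 73 in those of Tks5+/- LFs. The wt libraries lay at 9.01, 17.1 and 17.1 CPM and the Tks5+/- libraries at 44.4, 39.8 and 37.4 CPM, and every Tks5+/- library was above every wt library. Mean levels rose 2.75-fold, from 14.4 ± 4.66 to 40.5 ± 3.60 CPM (SD, n = 3), and the log2 fold change was 1.46 (SE 0.28, 95% interval from 0.89 to 2.04, adjusted p = 1.93e-04). The library with the lowest Hbegf, Tks5+/- replicate 1 at 7 counts, was the one with the highest Errfi1. It was also the Tks5+/- library with the lowest Spry2, the other feedback gene that rose, at 62.6 CPM.

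Spry2 (ENSMUSG00000022114), a Sprouty gene that ERK signalling induces and whose product feeds back on it, lies on chromosome 14 from 105891947 to 105896819 on the reverse strand. The gene had 73, 87 and 105 counts in the wt libraries against 114, 175 and 218 in those of Tks5+/- LFs. The wt libraries were close together, between 38.9 and 47.0 CPM, and the Tks5+/- libraries were spread from 62.6 to 112 CPM without reaching the wt range. The level was 2.10-fold higher in Tks5+/- LFs, at 92.2 ± 26.1 against 44.2 ± 4.53 CPM (SD, n = 3), and the log2 fold change was 1.07 (SE 0.24, 95% interval from 0.58 to 1.56, adjusted p = 8.84e-04). With a correction for transcript length and GC content together, Spry2 stood at 0.53 and was no longer called (adjusted p = 0.0628).

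Dusp6 (ENSMUSG00000019960), the phosphatase gene most often read as a trace of ERK activity, lies on chromosome 10 from 99263231 to 99267489 on the forward strand. It had 61, 85 and 225 counts in the wt libraries against 63, 87 and 108 in those of Tks5+/- LFs. Only wt replicate 3, at 83.4 CPM, stood above the range of the Tks5+/- libraries, which lay between 34.6 and 55.3 CPM, while the other two wt libraries were inside it. The log2 fold change was -0.28 (SE 0.27, 95% interval from -0.83 to 0.28, adjusted p = 0.42), and without wt replicate 3 it was 0.14 (adjusted p = 0.716). Spry4 (chromosome 18, from 38586247 to 38601415, reverse strand) had 1, 0 and 4 counts in the wt libraries against 0, 3 and 0 in those of Tks5+/- LFs, so that no difference was detectable at this depth. Errfi1 and Spry2 thus differed between the genotypes, whereas Dusp6 was not called and Spry4 could not be tested.

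The 2 genes that fell and the 2 that rose were also set against each other inside each library, which removes the scaling between libraries. There were 3.14, 1.25 and 1.65 Hbegf counts for each Errfi1 count in the wt libraries, against 0.0864, 0.191 and 0.178 in those of Tks5+/- LFs. For each Spry2 count there were 0.616, 0.793 and 1.12 Ereg counts in wt and 0.219, 0.0914 and 0.138 in Tks5+/- LFs. Ereg outnumbered Errfi1 in every wt library, with ratios from 2.16 to 3.21, and was outnumbered by it in every Tks5+/- library, with ratios from 0.235 to 0.411. Genes that were lower and genes that were higher without overlap give ratios that cannot overlap, and these values are a description.

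**Figure D2:**
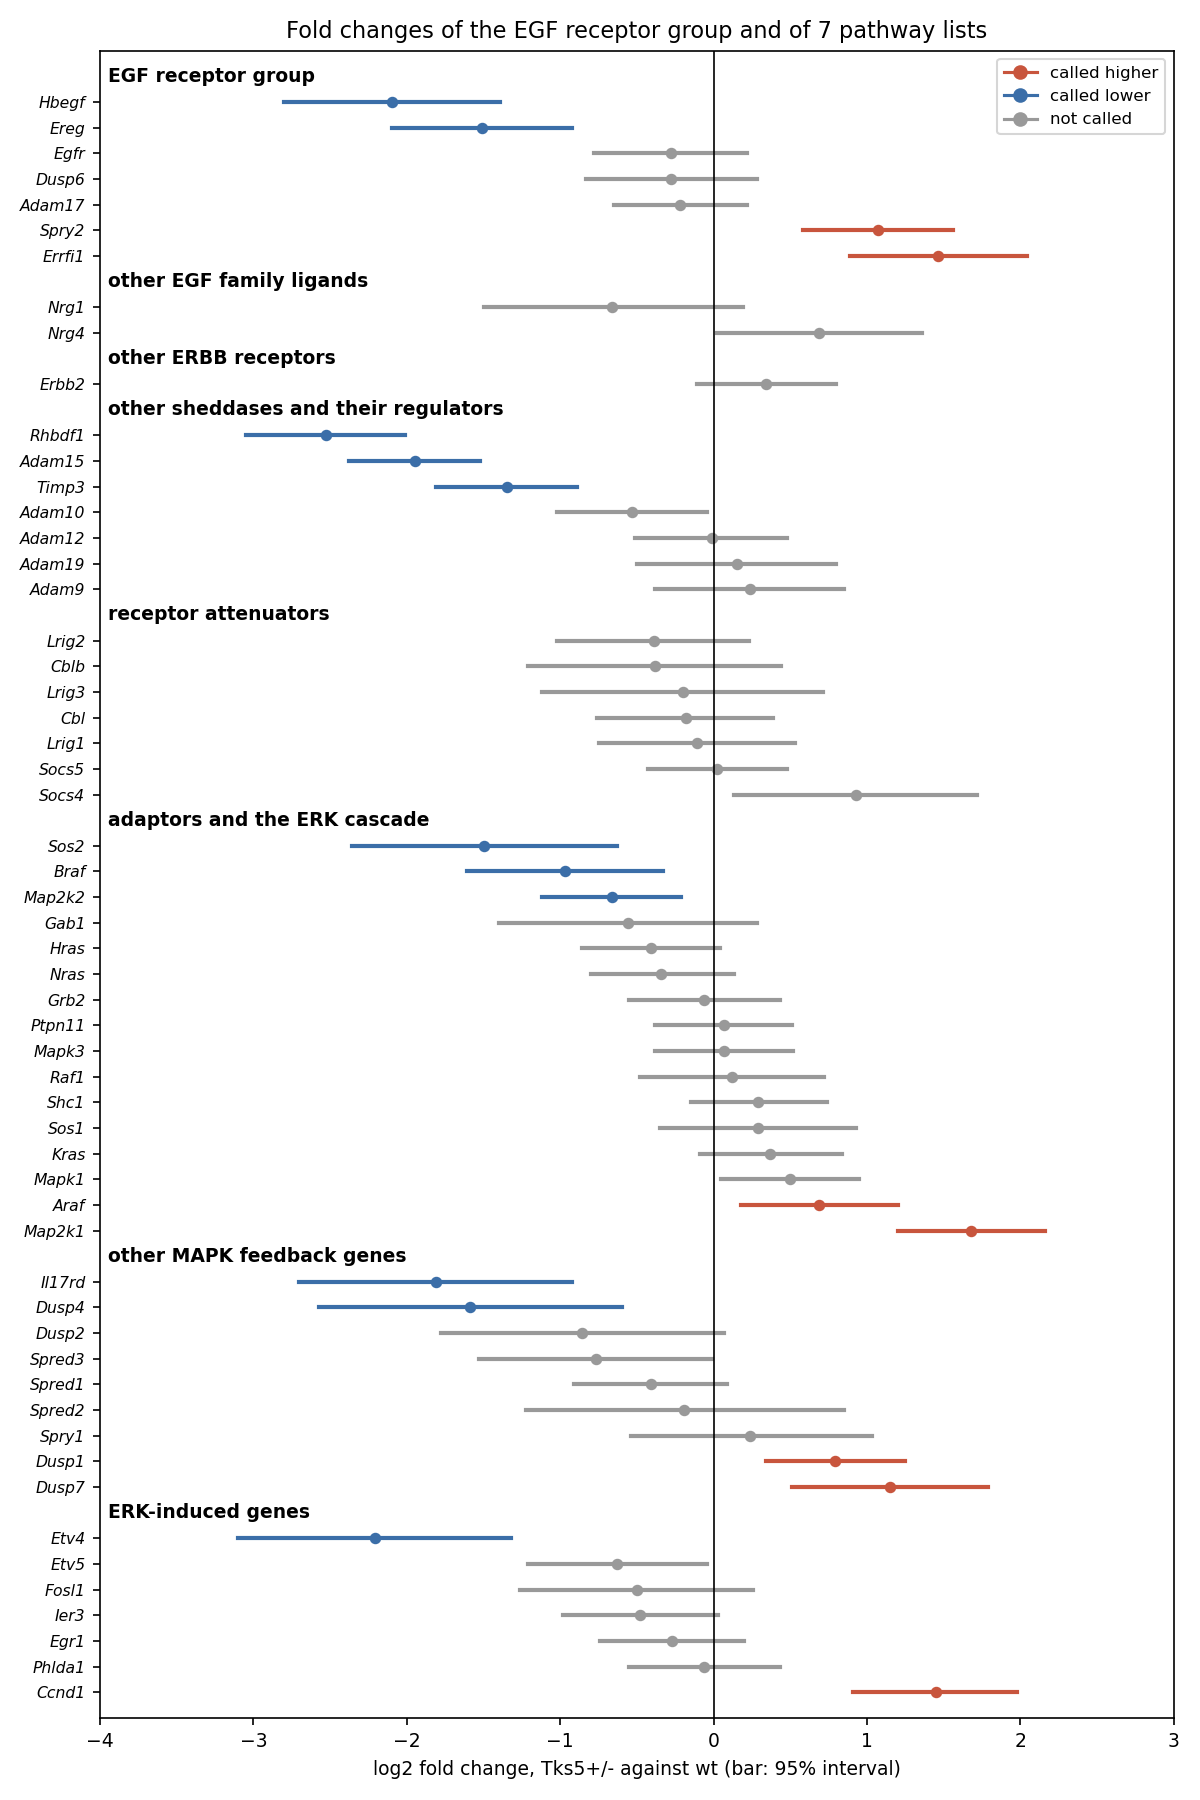
Log2 fold change (Tks5+/- against wt, horizontal axis) with its 95% interval for the 7 tested genes of the EGF receptor group and the 49 tested genes of 7 pathway lists, with genes called higher in red, called lower in blue and not called in grey. The intervals of Hbegf (-2.10) and Ereg (-1.51) lie left of 0 and those of Errfi1 (1.46) and Spry2 (1.07) right of it, and the called genes of the other lists, such as Rhbdf1 (-2.53) and Map2k1 (1.68), lie on both sides.

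The other genes of the pathway were read in 7 lists of 65 genes, of which 49 were tested. Of these 49, 5 were higher, 9 were lower and 35 were not called, with a median log2 fold change of -0.19. The share called was below that over all genes, and no test of the difference was made. Among the other EGF family ligands, edgeR called 0 of 2 tested genes, 1 of which had an unadjusted p under 0.05, and DESeq2 and limma-voom also called 0. Nrg1, a ligand of ERBB3 and ERBB4, had a log2 fold change of -0.66 (adjusted p = 0.199), and Nrg4, a ligand of ERBB4, one of 0.69 (adjusted p = 0.0869). Among the other receptors, Erbb2, the partner of EGFR that binds no ligand itself, was present at 98.4 ± 23.0 and 126 ± 19.6 CPM (SD, n = 3) and was not called (log2 fold change 0.34, adjusted p = 0.208), although it passed as higher with each correction for GC content or transcript length, at 0.61 (adjusted p = 0.0268) to 0.93 (adjusted p = 0.00244). The last exon of Nrg4 overlaps exons of Fbxo22 on the opposite strand, and that of Erbb2 overlaps exons of Mien1. Erbb4 had 0 counts in the wt libraries and 7, 0 and 2 in Tks5+/- replicates 1, 2 and 3, and was not tested.

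Of 7 tested attenuators of the receptor (Lrig, Cbl and Socs genes), edgeR called 0. At an unadjusted p under 0.05 there was 1, Socs4, named after its values were seen, with a log2 fold change of 0.93 (adjusted p = 0.0538). DESeq2 called 1 attenuator as higher, limma on the normalized counts also 1, and limma-voom 0. These calls are not tied to Socs4 here. Cbl, a ubiquitin ligase that sends EGFR for degradation, and Socs5 had the most counts of the list, with log2 fold changes of -0.18 and 0.02.

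Among the 16 tested adaptors and kinases of the cascade, 2 rose and 3 fell, where 44.9% of all genes tested were called. Map2k1, which encodes the kinase MEK1 upstream of ERK, had 320, 305 and 430 counts in the wt libraries against 844, 1317 and 887 in those of Tks5+/- LFs. It rose 3.20-fold, from 176 ± 25.8 to 563 ± 180 CPM (SD, n = 3), and the log2 fold change was 1.68 (SE 0.23, adjusted p = 5.18e-06), with no overlap between the genotypes. Map2k2, the gene of its relative MEK2, fell by 0.66 on the log2 scale (adjusted p = 0.0166), from 97.9 ± 17.6 to 61.9 ± 9.78 CPM (SD, n = 3). Map2k1 was called under every way of processing, while Map2k2 was not called with corrections for GC content, at -0.34 (adjusted p = 0.194), or without any 1 of wt replicates 2 and 3 and Tks5+/- replicates 2 and 3, at -0.62 to -0.55. Of the RAF kinase genes, Braf fell by 0.97 (adjusted p = 0.0137) and Araf rose by 0.69 (adjusted p = 0.0255), the latter with overlapping libraries. The last exons of both overlap exons on the opposite strand, of Ndufb2 for Braf and of Syn1 for Araf. Braf lost its call without Tks5+/- replicate 1 (-0.75, adjusted p = 0.0678), with DESeq2 (adjusted p = 0.082) and with corrections for transcript length (-0.31, adjusted p = 0.464). Araf lost its call under 9 alternatives, among them the left-out wt replicate 2 (0.59), wt replicate 3 (0.64) and Tks5+/- replicate 2 (0.43), DESeq2 (0.72, adjusted p = 0.0567), the normalized counts (0.54), corrections for GC content (0.55) and library totals (0.26, adjusted p = 0.385). Sos2, an exchange factor for RAS, fell by 1.50 (adjusted p = 0.00569) from 11.0 ± 1.18 to 3.83 ± 0.463 CPM (SD, n = 3), and just missed the threshold with DESeq2 (adjusted p = 0.0517). Mapk3, which encodes ERK1, had a log2 fold change of 0.07 (adjusted p = 0.806).

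The other MAPK feedback genes, 9 of 12 tested, were split, with 2 higher and 2 lower, where 44.9% of all genes tested were called. Dusp1 and Dusp7, which encode phosphatases of MAP kinases, rose by 0.79 (adjusted p = 0.00536) and 1.15 (adjusted p = 0.00413) on the log2 scale, but by 0.37 and 0.74 without a call when libraries were scaled by their totals. Dusp4, another phosphatase gene, fell by 1.59 (adjusted p = 0.00931) with 10, 15 and 27 counts in the wt libraries against 6, 3 and 6, and lost its call without either wt replicate 3, at -1.40 (adjusted p = 0.0625), or Tks5+/- replicate 2, at -1.34 (adjusted p = 0.055), and with DESeq2 (adjusted p = 0.0884). Il17rd, the gene of the transmembrane inhibitor SEF, fell by 1.81 (adjusted p = 0.00162), from 15.7 ± 3.23 to 4.33 ± 2.52 CPM (SD, n = 3). Spred1, an inhibitor of RAS signalling with the most counts among those not called, had a log2 fold change of -0.41 (adjusted p = 0.176).

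Of 11 genes known to be induced by ERK, 7 were tested, of which 1 rose and 1 fell, where 44.9% of all genes tested were called. Ccnd1, which encodes cyclin D1, rose 2.73-fold, from 18.0 ± 3.43 to 49.8 ± 10.5 CPM (SD, n = 3), and the log2 fold change was 1.45 (adjusted p = 1.04e-04). The last exon of Ccnd1 overlaps exons of LTO1 on the opposite strand. Etv4, a transcription factor gene, fell 4.62-fold, from 17.5 ± 8.35 to 3.86 ± 1.21 CPM (SD, n = 3), and the log2 fold change was -2.21 (adjusted p = 2.46e-04). Its highest library was wt replicate 3, with 73 counts against 18 and 26 in the other wt libraries. Egr1 and Ier3, immediate early genes, stood at -0.27 (adjusted p = 0.353) and -0.48 (adjusted p = 0.117) and were not called. Ier3 passed as lower under 4 alternatives, with corrections for transcript length (-0.97, adjusted p = 0.00252) or for length and GC content (-0.96), with the normalized counts (-0.94) and with library totals (-0.90), and stood at -0.14 without wt replicate 3.

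Other cell types that express EGFR ligands could be present in cultures of LFs, and their markers differed between the genotypes. Macrophages are a known source of HB-EGF and epiregulin. The 10 macrophage markers summed to 360, 307 and 1900 CPM in the wt libraries, and to 124, 136 and 140 CPM in those of Tks5+/- LFs. All 10 markers had counts in wt LFs, while Adgre1 and Ptprc were at 0 in all Tks5+/- libraries. By edgeR, 4 of 8 tested were called lower, against 22.1% of all genes tested. DESeq2 called 8 of the markers lower, limma-voom 7 and limma on the normalized counts 7. The 6 mesothelial markers summed to between 27.8 and 38.6 CPM in wt and between 5.12 and 14.3 CPM in Tks5+/- LFs. Of these, 2 were tested and called lower, while Krt19, with too few counts to be tested, averaged 1.44 and 2.01 CPM. The 6 endothelial markers summed to between 106 and 127 CPM in wt and between 45.6 and 59.9 CPM in Tks5+/- LFs, with Egfl7 alone at 65.7 and 20.7 CPM on average. Of 4 tested, 3 were called lower, where 22.1% of all genes tested were, while Ramp2 was not called, at 25.8 and 31.7 CPM. Pecam1 and Tek were at 0 in all Tks5+/- libraries. The sums of the 8 epithelial markers overlapped, at 24.1 to 47.8 and 29.7 to 60.3 CPM, but their members differed. Cdh1 (12.2 CPM on average in wt), Krt8 and Epcam were at 0 in all Tks5+/- libraries, Krt18 was called lower at a log2 fold change of -5.03, Ager was 3.53-fold higher, and Sftpc, Scgb1a1 and Nkx2-1 were at 0 in all libraries. The 7 markers of smooth muscle and pericytes summed to between 4807 and 5721 CPM in wt and between 6243 and 7126 CPM in Tks5+/- LFs. Cspg4 was 11.7-fold, Des 2.73-fold and Myh11 2.40-fold lower. Tagln was 3.96-fold higher, from 477.5 to 1891 CPM on average, and Cnn1 1.99-fold higher. Acta2 had the highest CPM of the list in every library, at 4610 and 4283 CPM on average, and was not called (log2 fold change -0.11, adjusted p = 0.71). The paper names its product as a marker of activated fibroblasts, so that this list is not particular to another cell type. In bulk RNA, fewer cells of a type and less RNA per cell cannot be told apart.

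The summed macrophage markers of wt replicate 3 were 5.70 times the mean of wt replicates 1 and 2, with Lyz2 at 1298.5 of the 1900 CPM. The sums of wt replicates 1 and 2, at 360 and 307 CPM, also lay above that of every Tks5+/- library. In wt replicate 3, Hbegf was 1.13 times its mean in wt replicates 1 and 2, Ereg 1.33 times, Errfi1 1.31 times and Spry2 0.832 times. Dusp6, at 1.97 times, differed most among the 7 tested genes of the EGF receptor group. Without wt replicate 3, the log2 fold changes were -2.03 for Hbegf, -1.36 for Ereg, 1.60 for Errfi1 and 0.97 for Spry2, and all 4 were called. The part of macrophages and of the other cell types listed in the levels of the EGF receptor group was not tested.

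**Figure D3:**
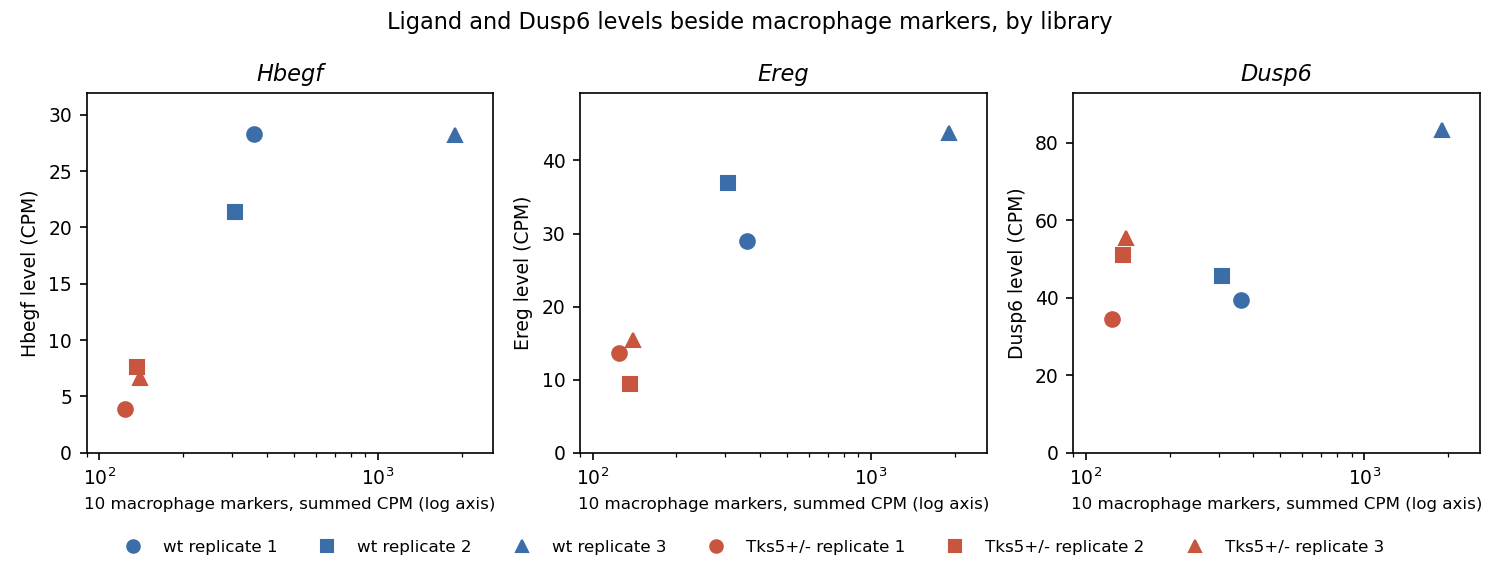
Level of Hbegf, Ereg and Dusp6 (CPM, vertical axes from 0) against the summed CPM of 10 macrophage markers (horizontal log axis) in each of the 3 wt (blue) and 3 Tks5+/- (red) libraries. The markers summed to 360, 307 and 1900 CPM in wt replicates 1, 2 and 3 and to between 124 and 140 CPM in the Tks5+/- libraries. Hbegf lay between 21.4 and 28.3 CPM in wt and between 3.84 and 7.61 CPM in Tks5+/- LFs, and Dusp6 was highest in wt replicate 3 at 83.4 CPM.

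The genes whose log2 CPM followed Hbegf and Egfr most closely over the 6 libraries were looked up among 10023 genes. For Hbegf these were Pstpip1 (Pearson's r 0.997), Rasgrp3 (0.996) and Gpbp1 (0.994), and for Egfr they were Rexo1 (0.993), Jarid2 (0.991) and Zfp827 (0.991). Pstpip1 and Rasgrp3 fell as Hbegf did, with log2 fold changes of -2.34 and -2.79, whereas Gpbp1 (-0.48, adjusted p = 0.068) and the genes closest to Egfr were not called. Values this high are found by searching many genes over few libraries, which share the genotype contrast and the scaling, and they are a description.

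Across 19 other ways of processing, Ereg and Errfi1 were called in each, with log2 fold changes from -1.93 to -1.29 and from 1.05 to 1.60, and Hbegf in the 18 in which it was tested, from -2.53 to -1.81. Spry2 stayed between 0.53 and 1.34. Egfr ran from -0.70 to 0.38. When libraries were scaled by their totals alone, all 7 tested genes were called, with Egfr at -0.70 (adjusted p = 0.0262), Adam17 at -0.64 (adjusted p = 0.0162) and Dusp6 at -0.71 (adjusted p = 0.0328), while the median over all genes moved to -0.47. Of all 10346 genes tested, 1362 were then called higher and 3944 lower.

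**Figure D4:**
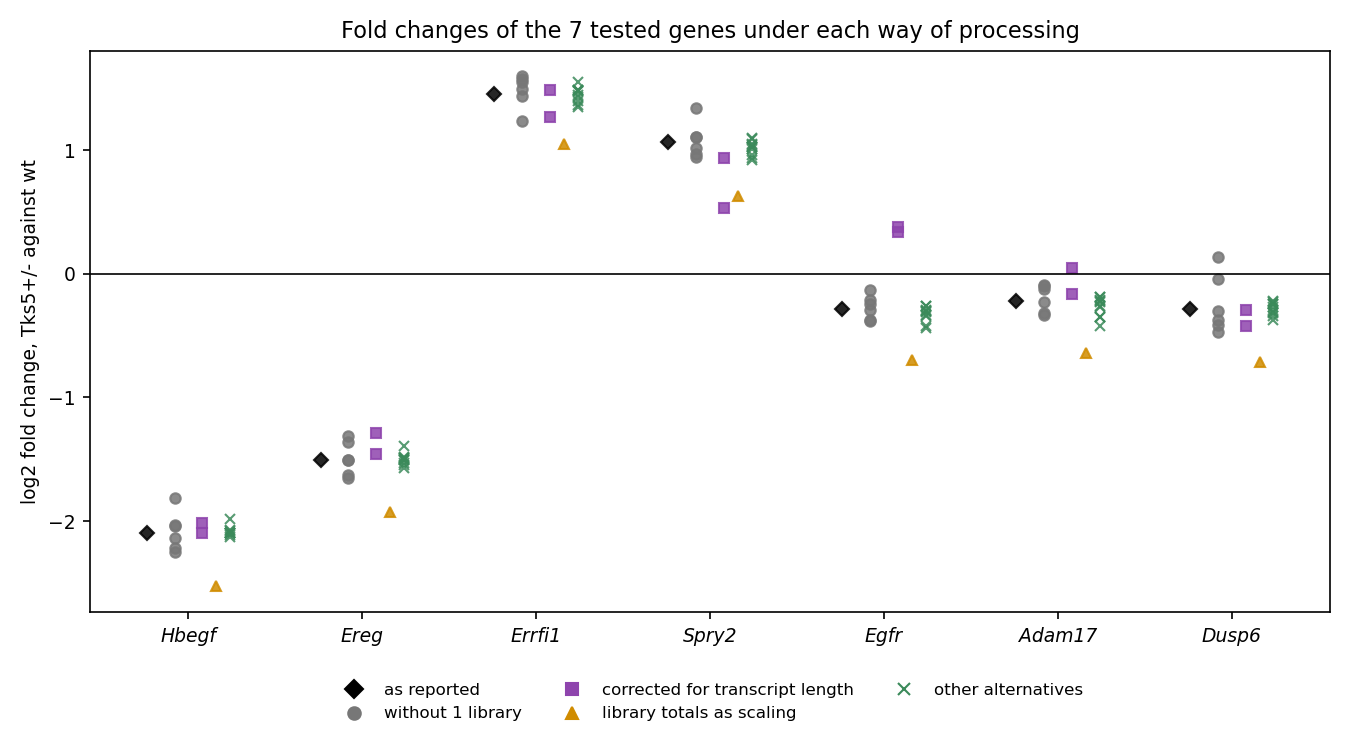
Log2 fold change (Tks5+/- against wt, vertical axis) of the 7 tested genes as reported (black) and under 19 other ways of processing, each point 1 alternative, with the libraries left out in grey, the corrections for transcript length in purple and scaling by library totals in orange. Hbegf and Ereg stay below 0 and Errfi1 and Spry2 above 0 in each, whereas points of Egfr, Adam17 and Dusp6 lie on both sides of 0.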

How the data were processed

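LFs of 3 wt and 3 Tks5+/- samples were profiled by Quant-Seq on an Ion Torrent instrument. The deposited table of raw counts was made by the authors with metaseqR2, which counts reads on 3′ regions before a sum per gene, after trimming (Trim Galore) and alignment to GRCm38 with HISAT2 followed by Bowtie2; the strand setting is not given in the sources used here. The normalized counts, treated here as a score, were made by the authors with EDASeq and rounded, and all 6 libraries hold the same sorted values. Gene symbols and positions came from GENCODE M21 (GRCm38) for 55104 of 55364 identifiers, and promoters from RefSeq.

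Raw counts were analysed with edgeR 4.0.16 under R 4.3.3, with the genes that filterByExpr kept, TMM scaling, the robust quasi-likelihood F test and Benjamini-Hochberg adjustment. CPM used the scaled library sizes. Errors are standard errors of the log2 fold change, with 95% intervals, and floors cover counting error only. Alternatives were other scalings, DESeq2 1.42.0, limma-voom (limma 3.58.1), limma on the normalized counts (pseudocount 1), no filter, at least 10 counts in every library, corrections for GC content and transcript length (loess span 0.5, prior count 2), a replicate block and each library left out. The fit was also run on simulated counts in which few genes were changed, so that the run cannot speak to the scaling or the share called here. The members, lists and alternatives were chosen with earlier results of these data known. Named were all 10 members, pathway genes that were called or among the 2 with the most counts of their list, the targeted gene, the 3 genes most like Egfr and Hbegf (at least 10 counts on average), and markers that touch a result. Socs4, Rhbdf2, Epha2, Cblc and Myc were named after their values were seen, and Btc, Epgn and Egf as parts of a sum. Iah1, Syn1, Syn3, Ndufb2, LTO1, Mien1 and Fbxo22 are named as overlapping genes. Plots were made with matplotlib 3.10.9.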

Additional observations from a re-analysis of the deposited data

How the results depend on the processing

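Under the 19 alternatives, 4 members were called in all but 3 settings. With library totals as scaling, 7 were called (2 higher, 5 lower) and 23 pathway genes (2 higher, 21 lower), where 4 and 14 were called before. The calls over all 10346 genes tested moved the same way, to 5306 (1362 higher, 3944 lower), and the median over all genes was -0.47. With at least 10 counts in every library there were 3, since Hbegf was not tested, and with corrections for length and GC content there were also 3, without Spry2. Leaving out 1 library kept 4 members called each time, and between 11 and 17 pathway genes, with between 3853 and 4595 called over all genes. Libraries of the same replicate number had correlations of deviations of -0.001, -0.064 and 0.082, and those of different numbers ran from -0.102 to 0.097. The labels give no pairing, and so few libraries cannot settle whether any were prepared together. With the replicate number as a block, 4 members, 14 pathway genes and 4668 of all genes were called, where 4642 were called without it.

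The sign changed in these cases, none of which passed the test, and the cause was not tested. With the correction for transcript length, the log2 fold change was 0.38 for Egfr, 0.05 for Adam17, 0.54 for Cbl, -0.12 for Mapk3, 0.05 for Spred1 and 0.00 for Egr1, and with length and GC content 0.34 for Egfr, 0.53 for Cbl and 0.28 for Egr1. With library totals it was -0.08 for Erbb2, -0.40 for Socs5 and -0.33 for Mapk3. Socs5, at 0.02, also stood at -0.01 with upper-quartile scaling, -0.11 with the authors' normalized counts, -0.03 with at least 10 counts and -0.09 with the GC correction, with or without the block, for which Egr1 stood at 0.00. Without 1 library, Dusp6 was 0.14 (wt replicate 3), Socs5 ranged from -0.06 (wt replicate 2) and -0.03 (Tks5+/- replicate 3) to 0.16, and Mapk3 from -0.05 (wt replicate 1) and -0.04 (Tks5+/- replicate 1) to 0.24. Depth limits Areg, Tgfa and Spry4, which had too few counts to be tested.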

Other observations

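Of the 64 pathway genes found among the genes listed, 49 were tested. Among the rest, which had too few counts to be tested, 4 had CPM that did not overlap between the genotypes, and all others overlapped. Of all genes tested, 53.8% did not overlap, and no such share was taken over the genes not tested. Rhbdf2, which encodes iRhom2, the other partner of ADAM17, had 14, 8 and 16 counts in the wt libraries against 6, 1 and 0 in those of Tks5+/- LFs, and Epha2, a receptor gene induced by ERK, had 7, 5 and 7 against 0, 1 and 1. Cblc, a relative of Cbl, had 0, 0 and 6 counts in the wt libraries against 9, 19 and 14, and Myc, a transcription factor gene, 1, 2 and 0 against 3, 5 and 5. These genes were chosen for their values, and no test was made.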
